A study of Mus musculus with 6 samples.

Results

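The genes described here belong to the transforming growth factor beta (TGF-beta) and bone morphogenetic protein (BMP) signalling family. They were taken by symbol from a table of read counts per gene: BMP, GDF and TGF-beta ligands, activin and inhibin beta subunits, their receptors, the SMAD proteins, the ID genes, noggin and the chordins. The choice found 57 of 18228 genes, of which 48 had enough reads to be tested, against 14702 genes tested in all. It also took 5 genes by name alone (Bmp1, Bmp2k, Tgfbi, Tgfb1i1 and Tgfbrap1), which are described apart from the core pathway. RNA came from whole hypothalamus of 3 aged mice (22 months) and 3 young mice (12 weeks), drawn at random from 5 mice of each age after a behavioural experiment. The study looked for genes that go with cognitive decline in ageing. The labels give no strain, sex or litter. All mice had free food and water and were killed under sodium pentobarbital, and the labels name no other treatment.

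TGF-beta family ligands are secreted as dimers that bring together type I and type II receptor kinases on the cell surface. The type I receptor then phosphorylates a receptor-regulated SMAD, which joins Smad4 and enters the nucleus. TGF-beta and activin ligands act mainly through Smad2 and Smad3, and BMPs through Smad1, Smad5 and Smad9. The Id genes are classic targets of BMP signalling and code for helix-loop-helix proteins that lack a DNA-binding region and hold back other transcription factors of that class. In brain the family is known for roles in astrocytes, microglia and the vessel wall.

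Each library held 17208291 to 18884403 counted reads. All 13 hypothalamic markers looked for (among them Avp, Oxt, Hcrt, Pmch and Nkx2-1) were detected, with summed levels of 1297 to 1402 CPM (reads scaled by library size) in aged and 1304 to 1481 CPM in young libraries. Of the 13, 1 rose (Avp, 357 to 373 CPM in aged libraries, against 220 to 253 CPM in young ones) and 1 fell (Hcrt, 103 to 114 CPM, against 162 to 247 CPM). Y-linked transcripts of 4 genes summed to 3394 to 3617 reads per aged library, against 24 to 32 reads per young library. The libraries therefore divide by Y-linked RNA exactly as they divide by age, so age and sex cannot be told apart in any difference below.

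Among the 48 tested members, Id1 rose and Id2 fell in aged hypothalamus, and the ligands, receptors, SMADs and antagonists held no gene that passed. The test was edgeR's quasi-likelihood test, with p-values adjusted over all 14702 genes by Benjamini-Hochberg and a threshold of 0.05. The 1 member called higher is 2.08% of the members tested, against 3.22% of all genes, and the 1 called lower is 2.08%, against 3.64%. Together the share of members called was 4.17%, against 6.86% of all genes. Over all genes 474 were higher and 535 lower in aged libraries, a split that became 627 and 446 under scaling by total counts. Without aged replicate 2, 3 of 49 members tested rose (Id1, Inhba and Smad1; 6.12%, against 6.08% of all genes) and 3 fell (Id2, Acvr2b and Tgfbr2; 6.12%, against 4.94%). Together these 6 made up 12.2%, against 11.0% of all genes. The median log2 fold change (aged over young) was -0.07 over the tested members and 0.00 over all genes tested. Fold changes lay below 0 for 32 of the 48 (66.7%, against 50.8% of all genes) and above 0 for 16 (33.3%, against 49.2%). The 32 include Smad5 and Bmp7 at -0.00 and -0.01, both of which turn to the other side of 0 when libraries are scaled by total counts. The libraries of the age groups did not overlap for 19 members (39.6%, against 31.7% of all genes), of which 6 stood higher in aged libraries (12.5%, against 15.5%) and 13 stood lower (27.1%, against 16.2%). In bulk tissue, fewer cells of a type and less RNA per cell cannot be told apart for any of these genes.

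**Figure D1:**
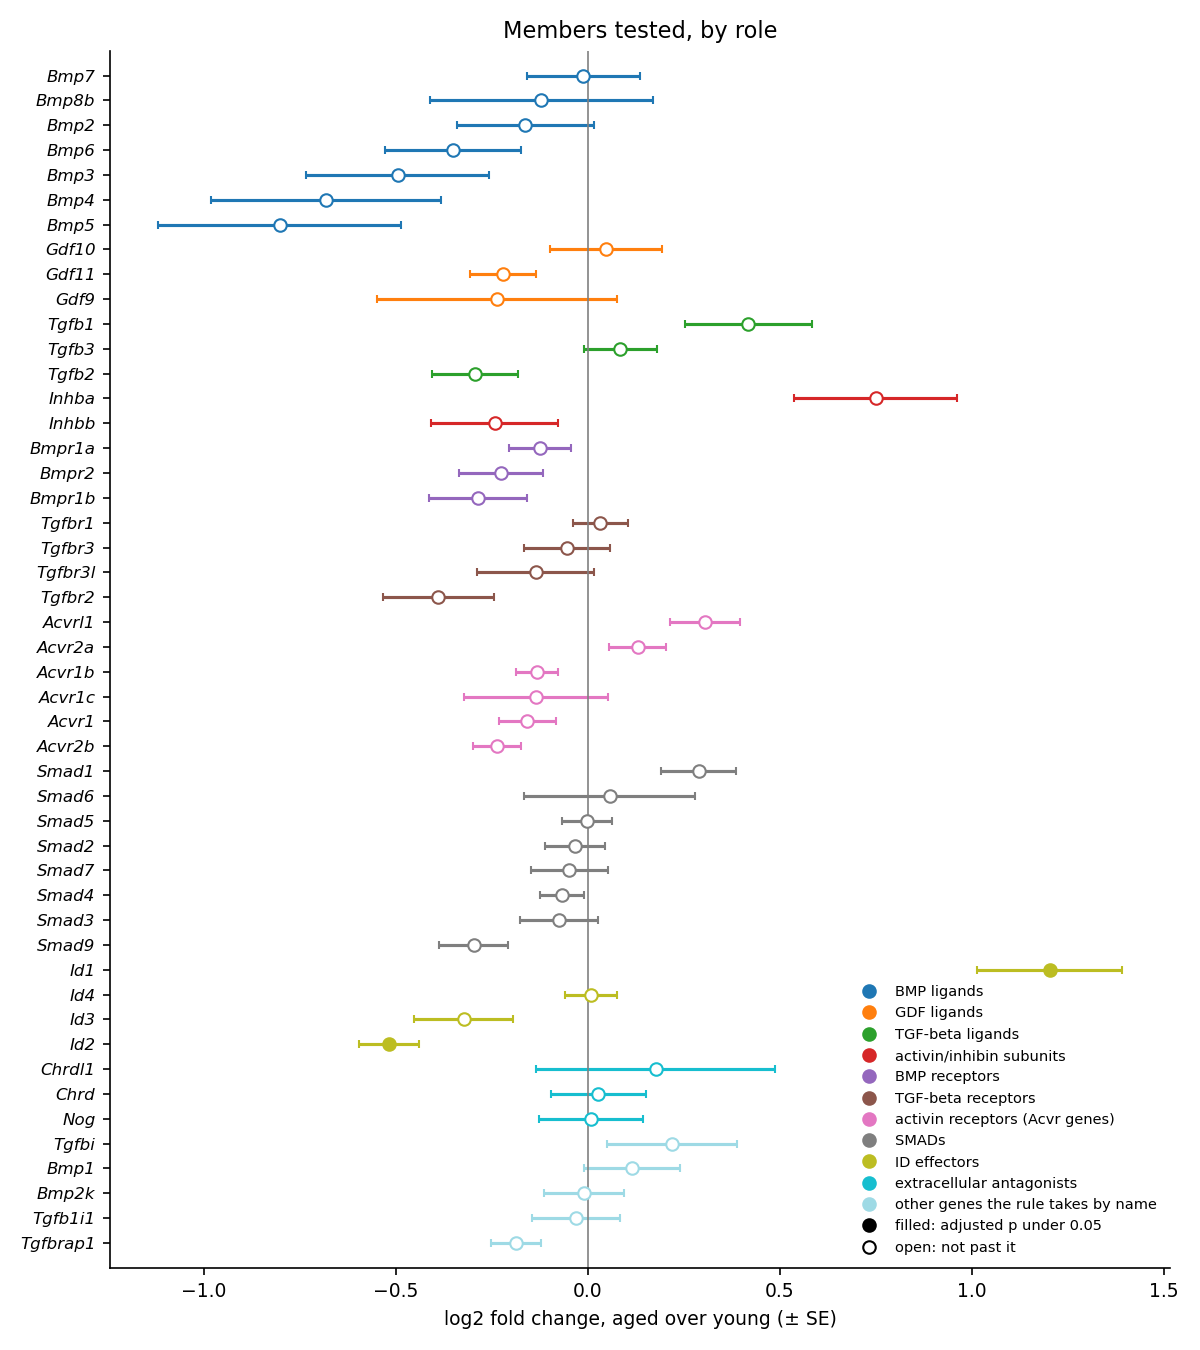
Log2 fold change, aged over young, for the 48 tested members (points, with SE as bars), grouped by role. Filled points passed an adjusted p of 0.05 in edgeR: Id1 at 1.20 and Id2 at -0.52, both among the ID genes.

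Of 15 tested ligands none passed in edgeR, and 6 had an unadjusted p under 0.05 (40.0%, against 26.2% of all genes). DESeq2, limma-voom and limma-trend on FPKM also called 0 of them, and limma-voom with sample weights called 2 (Inhba and Bmp4). Over all genes, the fit with sample weights called 1265 higher and 1303 lower, against 474 and 535 in edgeR. The 7 tested BMP ligands all had fold changes below 0 (against 50.8% of all genes). They ran from -0.80 for Bmp5 to -0.01 for Bmp7, whose sign turns under total-count scaling. Their median was -0.35.

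Bmp5, a ligand of the Bmp7 subgroup, was measured at 0.448, 0.986 and 0.808 CPM in aged libraries, against 1.11, 1.55 and 1.28 CPM in young libraries. The groups did not overlap, and the log2 fold change was -0.80 ± 0.32 SE (edgeR adjusted p = 0.145). The gene stood on only 8 to 27 reads per library. Bmp4, a close relative of Bmp2, had 0.897, 1.45 and 0.750 CPM in aged libraries, against 1.29, 1.78 and 1.95 CPM in young ones. Its groups overlapped, because aged replicate 2 exceeded young replicate 1 (log2 fold change -0.68 ± 0.30, edgeR adjusted p = 0.185). Bmp3, which antagonises other BMPs, and Bmp6 had log2 fold changes of -0.49 ± 0.24 and -0.35 ± 0.18 (edgeR adjusted p = 0.219 and 0.244), with overlapping groups. Exons of Bmp6 overlap those of Txndc5 on the other strand.

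Bmp7 was the most abundant BMP ligand per gene length, at 3.42 ± 0.50 FPKM in aged and 3.37 ± 0.46 FPKM in young libraries (SD, n = 3 each; the authors' length-scaled values). Bmp6, Bmp2 and Bmp3 followed, at 1.46, 1.18 and 0.829 FPKM in aged and 1.83, 1.29 and 1.15 FPKM in young libraries. Bmp8b had 11 to 18 reads per library, and its relative Bmp8a at most 5. The counting settings are not given, so how reads matching both genes were treated is unknown.

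Gdf11, a ligand that signals through activin receptors, had 34.7, 33.2 and 30.1 CPM in aged libraries, against 36.5, 41.5 and 36.3 CPM in young libraries. Every aged library stood below every young one, by a log2 fold change of -0.22 ± 0.09 (edgeR adjusted p = 0.139). At 5.66 ± 0.40 FPKM in aged and 6.46 ± 0.45 FPKM in young libraries (SD, n = 3 each), Gdf11 was the most abundant of the 15 tested ligands. Gdf10 and Gdf9 overlapped between the ages, at log2 fold changes of 0.05 ± 0.15 and -0.24 ± 0.31 (edgeR adjusted p = 0.874 and 0.678). The other 6 GDF genes (Gdf2, Gdf3, Gdf5, Gdf6, Gdf7 and the stress-induced Gdf15) were not tested. Together with Bmp8a, Bmp15 and Chrdl2 they make up the 9 members with too few reads, none above 15 reads in a library. Gdf15 had 2, 3 and 3 reads in aged and 1, 1 and 0 reads in young libraries.

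None of the 3 TGF-beta ligands passed, and their averages lay on both sides of 0. Tgfb1, which microglia make and depend on, had 6.33, 7.48 and 6.23 CPM in aged libraries, against 6.15, 4.42 and 4.45 CPM in young libraries. The lowest aged library exceeded the highest young one only narrowly (log2 fold change 0.42 ± 0.17, edgeR adjusted p = 0.147). Tgfb2, which astrocytes and neurons make, had 13.6, 14.9 and 12.3 CPM in aged libraries, against 15.2, 18.8 and 16.0 CPM in young libraries. Its groups did not overlap either, in the other direction (log2 fold change -0.29 ± 0.11, edgeR adjusted p = 0.135). Tgfb3 stood at 12.9, 11.5 and 12.9 CPM in aged libraries, against 11.9, 11.8 and 11.5 CPM in young ones, with overlap. Of the summed FPKM of the 3 genes, Tgfb1 made up 32.5% ± 2.35 in aged and 25.4% ± 4.36 in young libraries, Tgfb2 27.9% ± 1.67 and 35.8% ± 4.01, and Tgfb3 39.5% ± 3.78 and 38.8% ± 1.04 (SD, n = 3 each). Neither Tgfb1 nor Tgfb2 passed in edgeR, so the shift in shares is a description. Microglial markers summed to 349, 387 and 349 CPM in aged libraries, against 356, 349 and 337 CPM in young ones. The sum was highest in aged replicate 2, as Tgfb1 was. Of these 10 markers 2 rose and 1 fell, and none was at 0 in all libraries. Their part in the Tgfb1 values was not tested.

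Inhba codes for the beta A subunit of activin, and is a gene that neurons induce with activity. It had 4.82, 3.43 and 5.65 CPM in aged libraries, against 2.40, 3.05 and 2.78 CPM in young libraries. All aged libraries stood above all young ones, and the mean was 1.68-fold higher (log2 fold change 0.75 ± 0.21), but Inhba missed the threshold in edgeR (adjusted p = 0.0637). Its adjusted p ran from 0.0146 to 0.213 over the alternatives. It passed when aged replicate 2 was left out (log2 fold change 0.94, edgeR adjusted p = 0.0165), with sample weights, with the trend on gene length removed and at the looser threshold of 0.10. Inhbb, the beta B subunit, went the other way on average, at -0.24 ± 0.17 with overlapping groups (edgeR adjusted p = 0.389). Per gene length Inhbb was the more abundant subunit, at 2.02 FPKM in aged and 2.33 FPKM in young libraries, against 0.375 and 0.217 FPKM for Inhba.

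**Figure D2:**
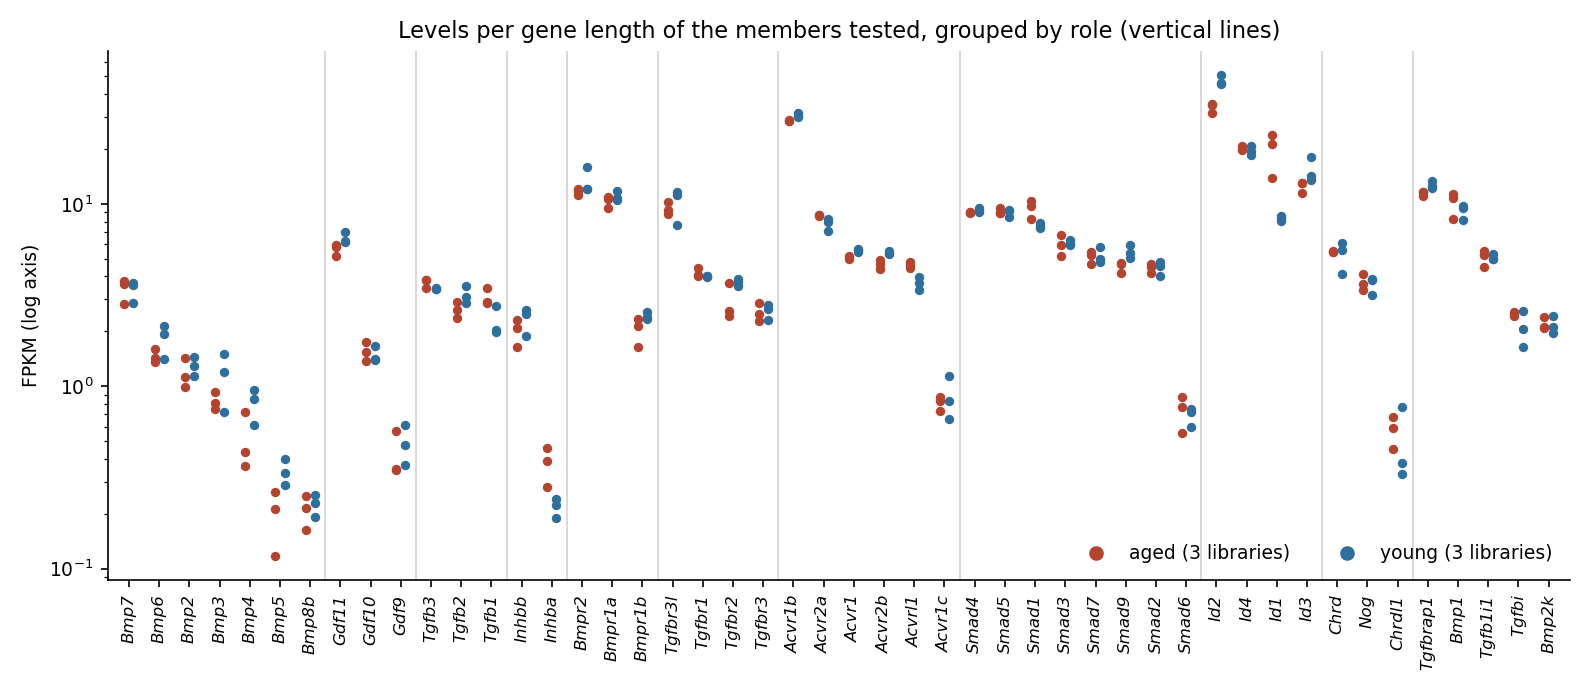
FPKM, on a log axis, of the 48 tested members in each library, grouped by role between vertical lines and ordered by level within a role. Acvr1b and the ID genes stand highest, and Bmp5, Bmp8b and Inhba lowest. Aged (left) and young (right) points lie close together for most genes.

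All 13 receptor genes were tested and none passed in edgeR, while 4 had an unadjusted p under 0.05 (30.8%, against 26.2% of all genes). DESeq2, limma-voom and limma-trend on FPKM called 0, and limma-voom with sample weights called 3 (Acvr2b, Acvrl1 and Tgfbr2). That last fit called many more genes in all, 1265 higher and 1303 lower, against 474 and 535 in edgeR. Fold changes lay below 0 for 10 of the 13 (76.9%, against 50.8% of all genes), with a median of -0.13, against -0.003 over all genes. Groups did not overlap for 7, or 53.8% (against 31.7% of all genes), of which 2 stood higher in aged libraries (15.4%, against 15.5%) and 5 lower (38.5%, against 16.2%).

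Acvr2b, a type II receptor for activins and Gdf11, came closest to the threshold. It had 57.2, 58.8 and 53.3 CPM in aged libraries, against 66.9, 65.8 and 66.9 CPM in young libraries. Every aged library stood below every young one by several units, and the young libraries lay close together. The log2 fold change was small, at -0.24 ± 0.06 (edgeR adjusted p = 0.0526), and it shrank to -0.13 (adjusted p = 0.293) with the trend on gene length removed. Acvr2a, the other activin type II receptor, lay slightly higher in aged libraries, at 44.7, 44.1 and 44.8 CPM, against 37.3, 43.5 and 41.2 CPM in young libraries (0.13 ± 0.07, edgeR adjusted p = 0.301). Exons of Acvr2a overlap those of Orc4 on the other strand.

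Acvrl1 codes for ALK1, a type I receptor of endothelial cells that binds Gdf2 and Bmp10. It had 16.9, 17.2 and 18.1 CPM in aged libraries, against 15.2, 13.0 and 14.0 CPM in young libraries. The groups did not overlap, and the log2 fold change was 0.31 ± 0.09 (edgeR adjusted p = 0.0720). The endothelial markers (10 genes, none at 0 in all libraries) summed to 425, 394 and 444 CPM in aged libraries, against 401, 334 and 354 CPM in young ones. Of the 10 markers 1 rose and 3 fell. Their part in the Acvrl1 values was not tested. Acvr1b, the type I receptor for activin, was the most abundant receptor, at 28.5 ± 0.17 FPKM in aged and 30.6 ± 0.73 FPKM in young libraries (SD, n = 3 each; log2 fold change -0.13 ± 0.05, edgeR adjusted p = 0.160). Acvr1, a type I receptor for BMPs, was at -0.16 ± 0.07 (edgeR adjusted p = 0.215). Both stood lower in every aged library, and the sixth gene, Acvr1c, overlapped.

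The 3 BMP receptors all had fold changes below 0 (against 50.8% of all genes), and none had an unadjusted p under 0.05 (against 26.2%). Bmpr1b, a type I receptor found in astrocytes, had 22.8, 15.7 and 20.8 CPM in aged libraries, against 23.7, 25.4 and 22.9 CPM in young libraries. Its log2 fold change of -0.29 ± 0.13 (edgeR adjusted p = 0.191) went with a low value in aged replicate 2, where the summed astrocyte markers were also lowest. These markers summed to 3950, 2949 and 4017 CPM in aged libraries and 4522, 4600 and 4372 CPM in young libraries, with none of the 10 at 0 in all libraries, 0 risen and 3 fallen. Their part in the Bmpr1b values was not tested. Bmpr2, the BMP type II receptor, had 132, 139 and 138 CPM in aged libraries, against 144, 193 and 142 CPM in young ones. The groups did not overlap, but young replicate 2 stood apart from the other two (log2 fold change -0.23 ± 0.11, edgeR adjusted p = 0.218). Bmpr1a overlapped at -0.12 ± 0.08 (edgeR adjusted p = 0.357).

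Tgfbr2, the type II receptor that binds TGF-beta, had 12.3, 17.3 and 11.5 CPM in aged libraries, against 17.3, 18.2 and 18.6 CPM in young libraries. Aged replicates 1 and 3 were well below all young libraries, while aged replicate 2 was level with young replicate 1. The log2 fold change was -0.39 ± 0.14 (edgeR adjusted p = 0.125), and without aged replicate 2 it was -0.59 (edgeR adjusted p = 0.00891). Tgfbr1, the type I receptor that pairs with it, overlapped at 25.7, 27.8 and 26.0 CPM in aged libraries, against 25.9, 26.3 and 25.6 CPM in young ones. The co-receptor Tgfbr3 (betaglycan) and its relative Tgfbr3l had fold changes of -0.05 ± 0.11 and -0.13 ± 0.15, with overlap (edgeR adjusted p = 0.808 and 0.620).

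None of the 8 SMAD genes passed in edgeR, in DESeq2, in limma-voom or in limma-trend on FPKM. Smad1 passed with sample weights, a fit that called 1265 genes higher and 1303 lower in all. In edgeR 2 of the 8 (Smad1 and Smad9) had an unadjusted p under 0.05 (25%, against 26.2% of all genes). These 2 belong to the BMP branch and lay on opposite sides. Smad1 had 31.4, 26.2 and 33.3 CPM in aged libraries, against 24.9, 25.9 and 23.7 CPM in young libraries, and the gap between aged replicate 2 and the highest young library was small (log2 fold change 0.29 ± 0.10, edgeR adjusted p = 0.101). Smad9 had 25.7, 28.3 and 29.1 CPM in aged libraries, against 37.2, 33.8 and 31.2 CPM in young libraries, with no overlap (-0.30 ± 0.09, edgeR adjusted p = 0.0725). Smad5, the third SMAD of the BMP branch, overlapped, at 9.11 ± 0.38 FPKM in aged and 8.93 ± 0.41 FPKM in young libraries (SD, n = 3 each).

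The common partner Smad4 stood at 66.9, 65.5 and 65.6 CPM in aged libraries, against 68.2, 69.5 and 69.9 CPM in young ones. This is a narrow gap without overlap, with a log2 fold change of -0.07 ± 0.06 (edgeR adjusted p = 0.491). For Smad2 and Smad3, which carry TGF-beta and activin signals, log2 fold changes were -0.03 ± 0.08 and -0.07 ± 0.10 with overlap. The inhibitory SMADs, which BMP and TGF-beta signals induce as feedback, overlapped too, Smad7 at -0.05 ± 0.10 and Smad6 at 0.06 ± 0.22, with edgeR adjusted p of 0.810 and 0.901. Per gene length Smad4, Smad5 and Smad1 were the most abundant, and Smad6 the least at 0.732 FPKM in aged and 0.692 FPKM in young libraries.

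The 4 ID genes held both members that passed. Id1 had 19.7, 12.7 and 22.2 CPM in aged libraries, against 8.15, 7.99 and 7.51 CPM in young libraries. Each aged library exceeded each young one, and aged replicate 2 lay nearest to them. The mean was 18.2 ± 4.93 CPM in aged mice, against 7.88 ± 0.33 CPM in young mice (SD, n = 3 each), a 2.30-fold rise (log2 fold change 1.20 ± 0.19 SE, edgeR adjusted p = 0.00976). Id2 had 44.4, 43.8 and 39.6 CPM in aged libraries, against 65.9, 59.2 and 58.0 CPM in young libraries. All aged libraries were below all young ones, with means of 42.6 ± 2.65 CPM in aged mice, against 61.0 ± 4.29 CPM in young mice (SD, n = 3 each) and a log2 fold change of -0.52 ± 0.08 (edgeR adjusted p = 0.00844). Both kept direction and call in 18 of 18 alternatives, Id1 between 1.05 and 1.42 and Id2 between -0.62 and -0.45.

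Id3 had 10.9, 12.1 and 12.3 CPM in aged libraries, against 13.0, 17.6 and 13.5 CPM in young libraries. It stood lower in every aged library without passing (log2 fold change -0.32 ± 0.13, edgeR adjusted p = 0.148). Id4, known from astrocytes and neural stem cells, overlapped at 82.6, 77.4 and 77.4 CPM in aged libraries, against 74.4, 84.2 and 77.3 CPM in young ones (0.01 ± 0.07, edgeR adjusted p = 0.951). The FPKM of the 4 genes summed to 88.5, 81.8 and 87.9 in aged and 91.5, 93.0 and 87.6 in young libraries, so the summed level overlapped while its make-up differed. Id1 made up 22.7% ± 5.25 of the sum in aged and 9.2% ± 0.18 in young libraries, and Id2 39.4% ± 3.65 and 52.3% ± 3.33 (SD, n = 3 each). By level per gene length the order in young libraries was Id2, Id4, Id3 and Id1, and in aged libraries Id1 (19.6 ± 5.20 FPKM) stood beside Id4 (20.2 ± 0.64 FPKM), within the spread of Id1.

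**Figure D3:**
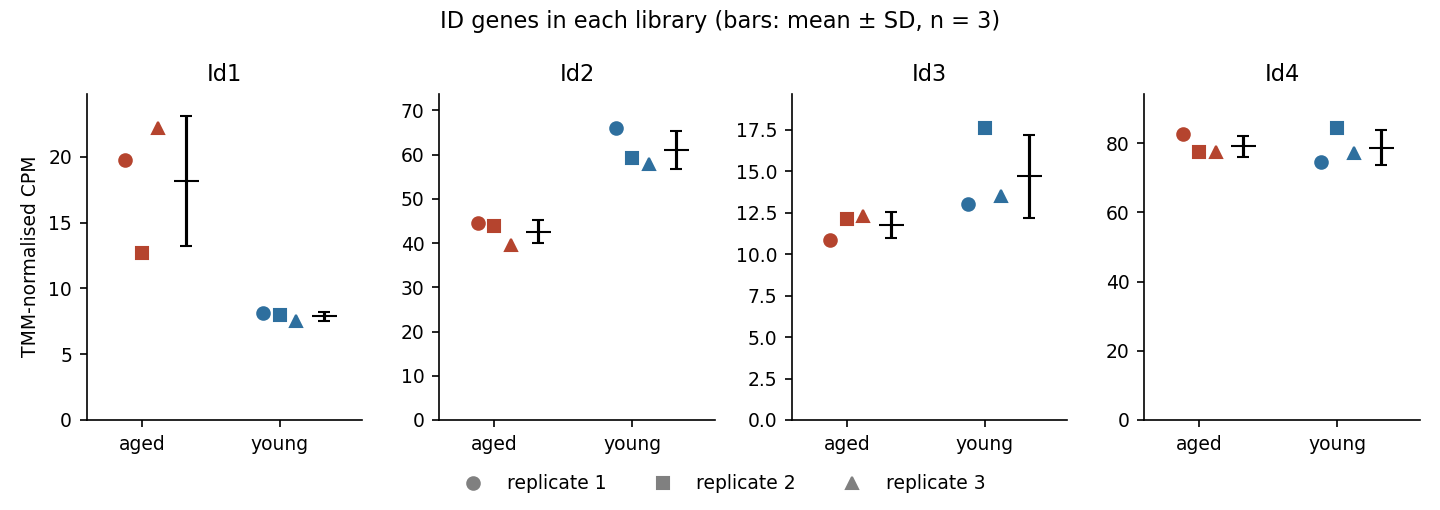
TMM-normalised CPM of Id1, Id2, Id3 and Id4 in each library, aged on the left and young on the right of each panel, with a symbol for each replicate and mean ± SD (n = 3) as a bar. Aged libraries lie above all young ones for Id1 (12.7 to 22.2 against 7.51 to 8.15) and below them for Id2 (39.6 to 44.4 against 58.0 to 65.9).

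Promoters of Id2, Id3 and Id4 are shown to set Id2, which fell, beside members of the same family that did not pass. RefSeq promoter entries were found for 38 of the 57 members. Id1, the member that rose, had no entry, so its promoter was not analysed here. Each line gives the 250 bases before the annotated start in the build GRCm38.p6, 5′ to 3′ on the gene's strand, at chr12:25096093-25096342 (minus strand) for Id2, chr4:136143572-136143821 (plus strand) for Id3 and chr13:48260866-48261115 (plus strand) for Id4. Capitals mark matches to the motifs searched on both strands.
Id2: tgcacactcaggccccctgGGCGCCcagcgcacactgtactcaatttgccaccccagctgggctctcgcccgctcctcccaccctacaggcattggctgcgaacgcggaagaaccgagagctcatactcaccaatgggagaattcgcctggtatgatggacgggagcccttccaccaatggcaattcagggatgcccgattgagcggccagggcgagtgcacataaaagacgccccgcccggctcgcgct
Id3: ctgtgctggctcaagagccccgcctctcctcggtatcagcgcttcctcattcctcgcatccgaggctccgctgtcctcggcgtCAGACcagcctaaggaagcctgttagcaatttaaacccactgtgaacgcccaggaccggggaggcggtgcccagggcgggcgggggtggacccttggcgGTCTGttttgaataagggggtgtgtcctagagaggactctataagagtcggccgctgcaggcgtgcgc
Id4: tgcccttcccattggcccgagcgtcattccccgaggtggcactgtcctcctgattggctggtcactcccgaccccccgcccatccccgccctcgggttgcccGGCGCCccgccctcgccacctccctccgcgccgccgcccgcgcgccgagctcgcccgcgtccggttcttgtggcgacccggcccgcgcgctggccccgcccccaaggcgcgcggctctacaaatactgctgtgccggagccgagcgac

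The motifs were GGCGCC, an element bound by SMADs of the BMP branch, CAGAC, a short SMAD box (GTCTG on the other strand), TGACGTCA, the cyclic AMP response element, and CACGTG, an E-box. No match overlapped another. GGCGCC stood once in the Id2 window, 231 to 226 bases before the start, and once in that of Id4, 148 to 143 bases before the RefSeq start, which matched no transcript start in GENCODE M21. Of 32851 promoter entries, 9.59% hold it. CAGAC stood at 167 to 163 and, on the other strand, at 68 to 64 bases before the Id3 start, and 42.2% of entries hold it. TGACGTCA and CACGTG, which 1.55% and 6.02% of entries hold, had no match in these 3 windows. Id2, which fell, and Id4, whose groups overlapped, share a GGCGCC match, a description of these letters only.

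None of the 3 tested antagonists of BMP ligands passed in edgeR. Noggin (Nog) had 7.01, 7.79 and 6.40 CPM in aged libraries, against 6.21, 7.58 and 7.29 CPM in young ones. Chrd, which codes for chordin and shares exon sequence with Thpo on the other strand, had 21.6, 21.1 and 21.8 CPM in aged libraries, against 22.5, 16.7 and 24.0 CPM in young ones. Both overlapped, at log2 fold changes of 0.01 ± 0.13 and 0.03 ± 0.12 (edgeR adjusted p = 0.976 and 0.911). Chrdl1, a secreted antagonist made by astrocytes, ranged from 3.01 to 4.56 CPM in aged libraries, against 2.29 to 5.34 CPM in young ones (edgeR adjusted p = 0.763). None of the 3 had an unadjusted p under 0.05, and no other tool called one.

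Of the 5 genes taken by name alone, none passed in edgeR or the other tools, and Tgfbrap1 had an unadjusted p under 0.05. Tgfbrap1, which codes for a receptor-associated protein that also serves in endosome fusion, had 68.1, 63.2 and 67.4 CPM in aged libraries, against 79.6, 73.0 and 73.4 CPM in young libraries. The groups did not overlap (log2 fold change -0.19 ± 0.06, edgeR adjusted p = 0.108). Bmp1, a protease that cleaves procollagen and chordin and is not a BMP, was at 0.12 ± 0.13. Tgfbi, a matrix protein induced by TGF-beta, was at 0.22 ± 0.17, and the adaptor Tgfb1i1 at -0.03 ± 0.11, all with overlapping groups.

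Other genes of the pathway, outside the symbols above, were read from a list chosen with earlier results of these data known. Shares called within this list and its classes are therefore a description and not a test of enrichment. The list held 77 genes, of which 69 were tested. Of these, 7 rose (10.1%, against 3.22% of all genes), 3 fell (4.35%, against 3.64%) and 59 did not pass in edgeR, with a median log2 fold change of -0.01. The calls stood among target genes, where 4 rose and 2 fell of 13 (30.8% and 15.4%, against 3.22% and 3.64% of all genes). They also stood among proteins of TGF-beta latency and activation (2 rose of 11, 18.2%) and co-receptors (1 rose and 1 fell of 7, 14.3% each). None of 18 secreted modulators, 16 intracellular regulators or 4 further ligands passed. In these classes 8 (44.4%), 4 (25%) and 0 had an unadjusted p under 0.05, against 26.2% of all genes. The count of 7 that rose varied with the libraries used. It was 2 without aged replicate 1, aged replicate 3, young replicate 1 or young replicate 3. It was 4 without young replicate 2 and 9 without aged replicate 2. Over all genes, the 474 higher became 149, 95, 142 and 181 in the fits that gave 2, in the order named. They became 310 without young replicate 2 and 901 without aged replicate 2. The 3 that fell became 1 without aged replicate 3 or young replicate 1, 2 without aged replicate 1, young replicate 2 or young replicate 3, and 3 without aged replicate 2. Over all genes, the 535 lower became 55, 120, 95, 269, 215 and 732 in these fits, in the order named.

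Lrrc32, which codes for GARP, a protein that holds latent TGF-beta on the cell surface, had 10.7, 6.75 and 14.7 CPM in aged libraries, against 5.74, 4.14 and 4.01 CPM in young libraries. It rose 2.31-fold (log2 fold change 1.21 ± 0.27, edgeR adjusted p = 0.0306). Thbs1, which codes for the matrix protein thrombospondin that can release active TGF-beta, had 9.42, 7.74 and 13.6 CPM in aged libraries, against 5.22, 6.21 and 5.62 CPM in young libraries (0.85 ± 0.20, edgeR adjusted p = 0.0376). Bambi, a pseudoreceptor without a kinase that dampens signalling, had 9.14, 7.42 and 10.4 CPM in aged libraries, against 4.28, 6.26 and 5.23 CPM in young libraries (0.77 ± 0.18, edgeR adjusted p = 0.0328). Aged libraries exceeded all young ones for all 3 genes. Their calls were lost in 6, 7 and 4 of 18 alternatives.

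Ccn2, a TGF-beta target that codes for connective tissue growth factor, had 16.4, 8.46 and 13.5 CPM in aged libraries, against 3.69, 7.41 and 3.23 CPM in young libraries (log2 fold change 1.42 ± 0.32, edgeR adjusted p = 0.0311). Young replicate 2 came close to aged replicate 2 for Ccn2. Cdkn1a, a cell cycle inhibitor, rose by 1.68 ± 0.21 on the log2 scale (edgeR adjusted p = 0.00436). Ctla2a, a protease inhibitor whose reads may be shared with its near-identical paralog, rose by 1.84 ± 0.20 on the log2 scale (edgeR adjusted p = 0.00281). Cdkn1a and Ctla2a passed in 18 of 18 alternatives and Ccn2 in 14. Aged replicate 2 had the lowest aged value for Id1, Inhba, Smad1 and 7 of the 7 pathway genes that rose.

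The 3 that fell were Rgma, Col1a1 and Ldlrad4. Rgma, a BMP co-receptor also known for repelling growing axons, had 79.0, 70.0 and 75.1 CPM in aged libraries, against 115, 104 and 92.6 CPM in young libraries (log2 fold change -0.48 ± 0.09, edgeR adjusted p = 0.0169). Its groups did not overlap, and it passed in 16 of 18 alternatives. Col1a1, a collagen chain that TGF-beta induces in fibroblasts, stood at 4.11 ± 0.92 CPM in aged mice, against 8.21 ± 0.26 CPM in young mice (SD, n = 3 each; -0.99 ± 0.17, edgeR adjusted p = 0.0133). It therefore lay on the opposite side from the target Ccn2. The fibroblast and meningeal markers, which include Col1a1, summed to 141, 125 and 135 CPM in aged libraries, against 171, 181 and 179 CPM in young ones (10 genes, none at 0 in all libraries, of which 0 rose and 4 fell), and their part in the Col1a1 values was not tested. Ldlrad4, which restrains SMAD activation, was at -0.38 ± 0.09 (edgeR adjusted p = 0.0398). It passed in 9 of 18 alternatives, and its exons overlap those of Fam210a on the other strand.

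**Figure D4:**
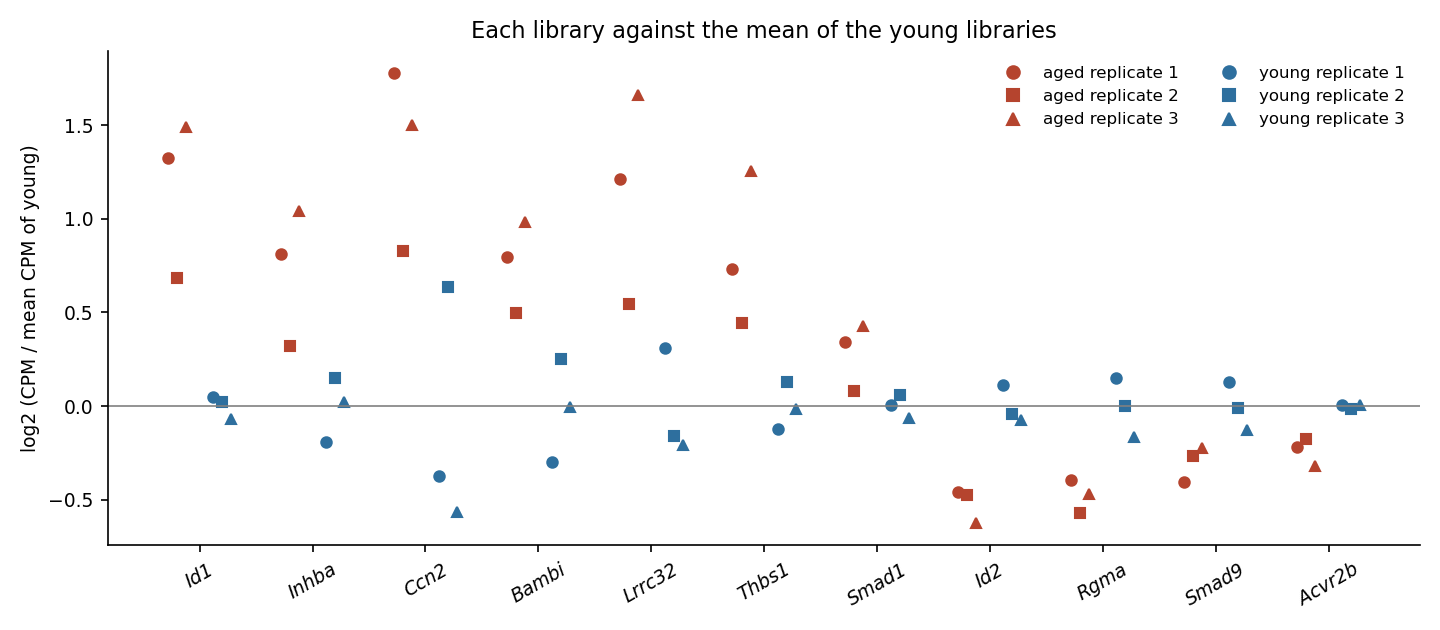
Log2 ratio of each library's CPM to the mean of the young libraries, for members and other pathway genes picked after their values were seen (symbols mark replicates; aged left, young right of each gene). For Id1, Inhba, Ccn2, Bambi, Lrrc32, Thbs1 and Smad1 the aged libraries stand above the young ones with aged replicate 2 lowest. For Id2, Rgma, Smad9 and Acvr2b they stand below.

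Summed markers of some cell types differed between the groups without overlap, while those of microglia, endothelial cells and neurons overlapped. Pericyte and smooth muscle markers summed to 229, 238 and 218 CPM in aged libraries, against 355, 294 and 296 CPM in young ones (10 genes; 0 rose and 2 fell). Oligodendrocyte precursor markers summed to 773, 664 and 756 CPM in aged libraries, against 956, 914 and 895 CPM in young ones (10 genes; 0 rose and 3 fell). Thalamus and habenula markers summed to 407 to 450 CPM in aged libraries, against 456 to 654 CPM in young ones (10 genes, 9 tested, of which 0 rose and 2 fell). Over all genes 3.22% rose and 3.64% fell. These 3 lists, like the astrocyte and fibroblast lists, were lower in every aged library than in any young one, and no listed marker was at 0 in all libraries. The lists are not fully separate: Cspg4 is in the pericyte and precursor lists, and Pdgfra in the precursor and fibroblast lists. Neuron markers (10 genes, 0 called) summed to 6067 to 6335 CPM in aged libraries, against 6257 to 7052 CPM in young ones. Markers of neighbouring cortex, hippocampus and amygdala spanned 790 to 933 CPM in aged libraries, against 858 to 1522 CPM in young ones, highest in young replicate 2. Some members were also highest in that library (among them Bmp3, Bmpr2, Tgfb2, Acvr1c, Gdf11 and Id3). Others were lowest in it (among them Chrd, Tgfbi and Tgfbr3l). The part of any of these lists in the differences above was not tested.

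**Figure D5:**
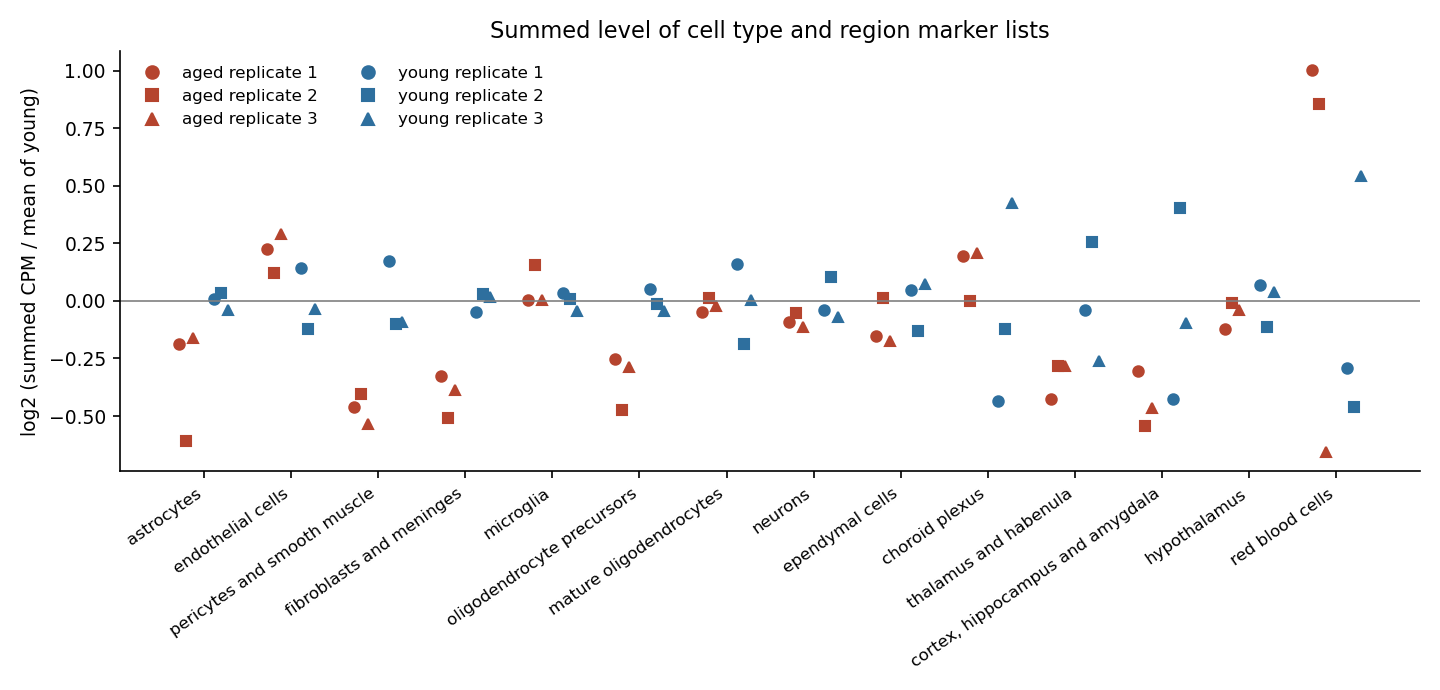
Log2 ratio of the summed CPM of each marker list to the mean of the young libraries, per library (symbols mark replicates; aged left, young right of each list). For astrocytes, pericytes, fibroblasts, oligodendrocyte precursors and thalamus all aged libraries lie below all young ones, and aged replicate 2 has the lowest astrocyte sum (2949 CPM).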

How the data were processed

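Per the submitters' processing notes, reads were handled with Trimmomatic, HISAT2, Cufflinks, HTSeq and DESeq on GRCm39, with no versions or settings. The authors deposited whole-number read counts per gene without normalization, and FPKM, which equals counts over gene length and library total for 18228 of 18228 genes (relative tolerance 1e-06). Per the labels' protocols, RNA was extracted with a mirVana kit and libraries made with a TruSeq Stranded mRNA kit. For the annotation and strand setting, the sources used here give nothing, so genes overlapping on opposite strands are uncertain. Among the members, exons of Acvr2a, Bmp2k, Bmp6, Bmp8b and Chrd overlap those of another counted gene on the other strand.

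The main test was edgeR 4.0.16 (R 4.3.3), quasi-likelihood, aged against young, no covariate, on genes kept by filterByExpr (minimum count 10, minimum total 15) with TMM scaling. P-values were adjusted over all 14702 genes; SE are those implied by the test. CPM are TMM-normalised and FPKM are as deposited. Alternatives (other scalings and filters, DESeq2 1.42.0, limma 3.58.1 with voom, with voom sample weights, and limma-trend on FPKM with pseudocounts of 1 or 0.1 before log2, a replicate block, a loess length trend removed, an adjusted p under 0.10, and leaving out each library) are given in the closing section. The edgeR script was tested on simulated data. Replicates differed by more than counting error allows (chi-square over degrees of freedom, 3.91 to 11.6), so none was a copy. Libraries are taken as separate mice. Named genes were the members that passed, up to 4 per role with the smallest p, the 2 per role with the highest FPKM, the ID genes, and the other pathway genes that passed; Smad2, Smad6, Smad7, Acvr1c, Bmp2, Bmp2k, Bmp8b and the members with too few reads are named beyond this rule to account for all. Of the other pathway genes that passed, 1 is counted but not reported here by name. Members, lists and rules were chosen with earlier results of these data known. Exon overlaps and promoters use GRCm38 annotation, GENCODE M21 and RefSeq, for names, neighbours and promoter sequence only.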

Additional observations from a re-analysis of the deposited data

How the results depend on the processing

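Id1 and Id2 passed in 18 of 18 alternatives, counting the threshold of 0.10, which could not undo a call. Members higher and lower were 2 and 1 with the length trend removed (Inhba added), 4 and 4 with limma-voom sample weights, 3 and 3 at an adjusted p under 0.10, and 1 to 3 each when single libraries were left out. Other pathway genes lower were 8 with sample weights and 7 at 0.10, while leaving out a library gave 2 to 9 higher and 1 to 3 lower. Over all genes, 474 higher and 535 lower became 387 and 356 without the length trend, 1265 and 1303 with sample weights, 1017 and 1170 at 0.10, and 627 and 446 under total counts; limma-trend gave 293 lower on log2(FPKM + 1) and 303 on log2(FPKM + 0.1), and leaving out libraries gave 95 to 901 higher and 55 to 732 lower. Total counts put the median log2 fold change of all genes at 0.026. Uncalled members near 0 turned sign: Bmp7 to 0.018 (total counts, FPKM + 0.1), 0.014 (FPKM + 1) and 0.151 (sample weights); Smad5 to 0.002 (DESeq2), 0.003 (RLE), 0.061 (length), 0.028 (FPKM + 0.1, total counts), 0.025 (FPKM + 1), 0.016 (sample weights) and 0.007 (no filter); Nog to -0.057 (length) and -0.043, Chrd to -0.026 and Tgfb1i1 to 0.034 (sample weights). Without single libraries, ranges were -0.121 to 0.125 for Bmp7, -0.107 to 0.143 for Chrd, -0.03 to 0.667 for Chrdl1, -0.045 to 0.132 for Gdf10, -0.021 to 0.067 for Id4, -0.063 to 0.082 for Nog, -0.172 to 0.036 for Smad3, -0.029 to 0.034 for Smad5, -0.085 to 0.067 for Tgfb1i1 and -0.133 to 0.028 for Tgfbr3. The cause of these moves was not tested. The replicate numbers were not taken to pair the mice. Deviations of same-numbered libraries correlated at 0.0953, 0.0374 and -0.138, too few values to exclude pairing. With the replicate block 523 genes were higher and 667 lower, members stayed at 1 and 1, and other pathway genes at 7 and 3. With 8 to 27 reads per library, Bmp5 and like genes were too shallow to detect small changes.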
